A study of Mus musculus with 4 samples.

Results

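The genes described here are 10 T-lineage genes that stood out in a comparison of blood progenitors with high and low c-Myc protein: the T cell receptor gamma variable segments Trgv1 and Trgv4, the CD3 complex genes Cd3d, Cd3e, Cd3g and Cd247, the regulators Bcl11b and Themis, and the surface receptors Cd7 and Ccr9. All probe sets annotated to 1 of these genes and to no other gene were taken, which gave 25 of the 45037 probe sets measured, for 10 of 18193 named genes. The genes were proposed with their difference between the 2 groups already known, so this difference is given below as a description, without a test, and supports nothing. RNA came from LSK cells, bone marrow cells from mouse femurs that lack lineage markers and carry c-Kit and Sca1, a mixture of haematopoietic stem cells and multipotent progenitors. The mice were labelled WT, of strain B6/129, and their cells made a fusion of c-Myc and eGFP; no source used here gives the age of the mice, how many were used per array or the construct that carries the fusion. The Hi group held LSK cells sorted for a high level of the c-Myc-eGFP protein and the Lo group LSK cells sorted for a low level, with 2 arrays each, and 5 ng of total RNA per sample was amplified before it was hybridised to an Affymetrix mouse array. Nothing in the labels says whether the arrays of a group came from separate mice, so every error and p-value below measures only the spread between these samples, which may be technical. No array was treated with an agent, and nothing but the sort level distinguishes the groups in the labels.

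T cells form in the thymus from bone marrow progenitors. Notch signals there switch on the transcription factors Tcf1 and Gata3 and then Bcl11b, which closes off other fates, and the T cell receptor genes are rearranged by the Rag recombinase. The receptor reaches the cell surface only together with the CD3 chains, which carry its signal into the cell, and Themis acts in that signal during selection in the thymus. Segments of the receptor gamma locus can be transcribed before they are rearranged. Ccr9 is a chemokine receptor that guides progenitors to the thymus, and it is also found on plasmacytoid dendritic cells. Cd7 is a surface protein of the immunoglobulin family found on T cells, natural killer (NK) cells and some early progenitors.

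The members lie on 6 mouse chromosomes in the RefSeq annotation of GRCm38.p6. Trgv1 and Trgv4 belong to the receptor gamma locus on chromosome 13, Cd3g, Cd3d and Cd3e are neighbours on chromosome 9, which also holds Ccr9, and Cd247, Themis, Cd7 and Bcl11b are on chromosomes 1, 10, 11 and 12. RefSeq promoter windows of 300 bases, from 250 bases before to 50 after the gene start, matched 7 of the 10 genes. The windows of 4 of them are shown because these genes lay far apart in their values: Bcl11b and Ccr9 had large differences between the groups and Cd3g had nearly none, with Cd247 in between. Capitals mark matches on either strand to 7 motifs: the Myc E-box CACGTG, the E protein E-boxes CAGGTG and CAGCTG, the TCF/LEF motif CTTTGA, the GATA motif AGATAA, the Runx motif TGTGGT and the RBPJ motif TGGGAA. The windows are chr12:108003365-108003664 on the minus strand for Bcl11b, chr9:123766961-123767260 on the plus strand for Ccr9, chr1:165788431-165788730 on the plus strand for Cd247 and chr9:44980382-44980681 on the minus strand for Cd3g, all in GRCm38.p6.
Bcl11b: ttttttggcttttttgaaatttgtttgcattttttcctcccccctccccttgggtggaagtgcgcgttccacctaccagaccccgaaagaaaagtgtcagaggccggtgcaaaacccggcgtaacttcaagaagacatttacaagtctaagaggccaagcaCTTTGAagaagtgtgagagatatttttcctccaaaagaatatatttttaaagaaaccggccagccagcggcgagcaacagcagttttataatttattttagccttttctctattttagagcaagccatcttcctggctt
Ccr9: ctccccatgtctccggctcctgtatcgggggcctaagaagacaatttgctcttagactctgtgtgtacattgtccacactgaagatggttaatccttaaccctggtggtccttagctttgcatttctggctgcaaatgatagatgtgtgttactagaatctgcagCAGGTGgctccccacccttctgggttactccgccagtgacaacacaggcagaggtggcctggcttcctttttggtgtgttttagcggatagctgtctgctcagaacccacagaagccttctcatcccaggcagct
Cd247: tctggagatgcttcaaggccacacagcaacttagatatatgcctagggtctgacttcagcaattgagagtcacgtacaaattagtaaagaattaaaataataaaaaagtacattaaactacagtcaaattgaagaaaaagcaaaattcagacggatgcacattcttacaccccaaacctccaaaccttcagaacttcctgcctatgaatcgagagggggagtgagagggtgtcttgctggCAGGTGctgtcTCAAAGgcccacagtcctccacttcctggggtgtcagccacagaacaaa
Cd3g: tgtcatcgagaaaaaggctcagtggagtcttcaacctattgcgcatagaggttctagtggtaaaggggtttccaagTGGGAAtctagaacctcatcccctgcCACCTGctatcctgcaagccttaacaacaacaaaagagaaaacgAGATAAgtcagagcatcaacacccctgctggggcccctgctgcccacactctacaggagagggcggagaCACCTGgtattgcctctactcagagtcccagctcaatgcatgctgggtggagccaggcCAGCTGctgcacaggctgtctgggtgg

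The motif CAGGTG or its reverse complement CACCTG occurred in the windows of Ccr9 and of all 4 CD3 genes, and not in those of Bcl11b and Themis; 20.2% of 32851 promoter windows of this length held it. CTTTGA or TCAAAG occurred in the windows of Bcl11b, Cd247 and Cd3d, the last with 2 copies, against 16% of all windows. CACGTG, the motif that Myc and Max bind, was in none of the 7 genes' windows and in 7.15% of all windows. The RBPJ motif, read by the DNA-binding partner of Notch, was in the windows of Cd3e and Cd3g and in 25.6% of all windows, and the GATA motif was in that of Cd3g alone among the members and in 11.2% of all. CAGCTG, in 16.3% of all windows, was in that of Cd3g, and TGTGGT, in 16.8%, was in none of the members' windows. The motifs do not overlap in any of these windows. These matches describe the letters of 1 short window per start and are no evidence of binding.

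Values are log2 intensities. The deposited intensities are linear, and the quantity compared is Hi minus Lo on the log2 scale with its moderated standard error (SE), so a negative value means less signal in Hi. A probe set is called dim on an array at or under the brightest of 27 bacterial control probe sets, a limit between 4.74 and 4.87 on the 4 arrays. This limit assumes that no transcript was added for these controls. By the brightest probe set of each gene, both Hi arrays lay below both Lo arrays for 8 of the 10 genes and above both for 0; among all 18193 genes both Hi arrays lay below both Lo arrays in 25.4%. Over all probe sets of the members it was 19 of 25, against 22.0% of all probe sets. With the probe sets that were dim on all arrays removed, 4 of them from the members, it was 17, against 28.2% of all remaining probe sets. Since the genes were chosen from this contrast, nothing is read from these counts. The members differed widely among themselves: the median difference over the genes was -3.25 for the 2 gamma segments, -2.87 for the 2 surface receptors and -0.46 for the 4 CD3 chains, where the median of all genes was 0.03. No median is given for the regulators, because Themis was dim in Hi and its difference has only a bound. In bulk RNA like this, fewer cells of a type and less RNA per cell cannot be told apart.

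**Figure D1:**
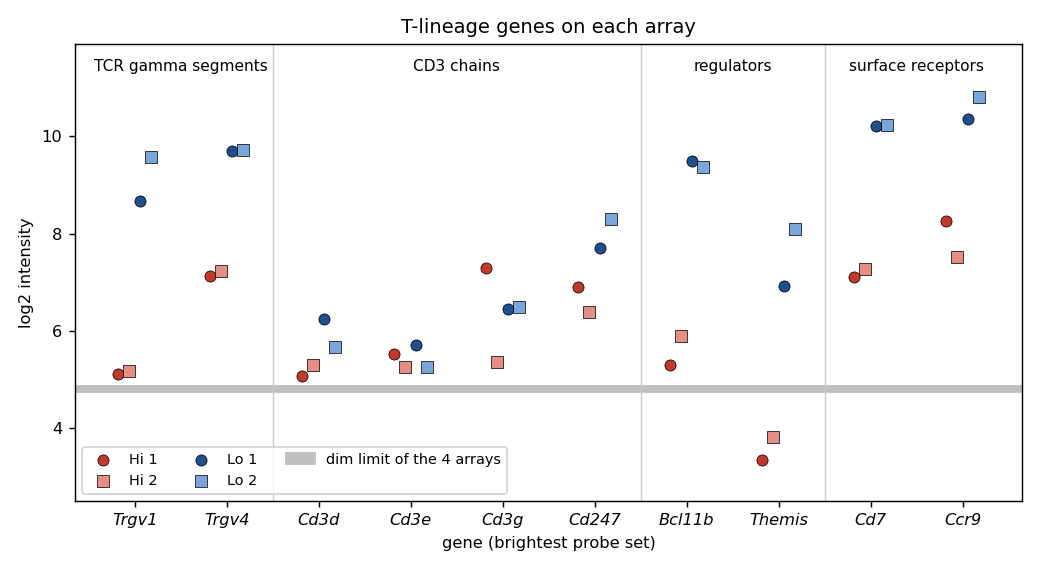
Log2 intensity (y axis) of the brightest probe set of each gene (x axis) on the 2 Hi and 2 Lo arrays, 1 point per array, with the range of the dim limit as a grey band. Trgv1, Trgv4, Bcl11b, Themis, Cd7 and Ccr9 have both Lo points well above both Hi points, while the points of Cd3e and Cd3g overlap.

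The gamma segments were clearly separated by the sort. Trgv1 had a log2 intensity of 5.11 and 5.17 in Hi and of 8.68 and 9.56 in Lo. The groups did not overlap: the Hi arrays were alike and close above the dim limit, and the Lo arrays were 0.89 apart, with Lo replicate 2 the higher. The difference was -3.98 ± 0.34 (SE), which is a 15.8-fold higher intensity in Lo. Trgv4 had 7.13 and 7.24 in Hi and 9.69 and 9.72 in Lo, again without overlap and with arrays of a group closely alike. Its difference was -2.52 ± 0.13, 5.74-fold, and a further probe set of Trgv4 gave -2.61 ± 0.16. The remaining Trgv4 probe set was dim on all 4 arrays, at 2.21 to 2.55. A probe set annotated to Trgv4 and a neighbouring segment was left out by the rule. The segments of this locus are close in sequence, and a probe set named after a variable segment may also read other transcripts of the locus, so which segments the signal came from is uncertain. The values do not show whether the transcripts were rearranged.

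The CD3 chains, which a cell needs to show any T cell receptor, were a mixed group. Cd3e, the epsilon chain and the usual surface marker of T cells, had 5.51 and 5.24 in Hi and 5.71 and 5.25 in Lo. The groups overlapped, all 4 arrays lay less than 1.0 above the dim limit, and the difference was -0.10 ± 0.23. Cd3g, the gamma chain, had 7.29 and 5.36 in Hi and 6.45 and 6.49 in Lo. Both Lo arrays lay between the Hi arrays, and the difference of -0.15 ± 0.70 turned with the Hi array left out: it was -1.11 without Hi replicate 1 and 0.82 without Hi replicate 2. That of Cd3e was 0.03 without Hi replicate 2 and 0.13 without Lo replicate 1.

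Cd3d, the delta chain, had 5.07 and 5.29 in Hi and 6.23 and 5.66 in Lo. The groups did not overlap, but Hi replicate 2 and Lo replicate 2 lay close together, and the difference of -0.77 ± 0.25 was -0.48 without Lo replicate 1. Cd247, the zeta chain that also serves the activating receptors of NK cells, had 6.91 and 6.39 in Hi and 7.70 and 8.30 in Lo by its brightest probe set. The groups did not overlap, and the difference was -1.35 ± 0.31, 2.55-fold. The other 3 probe sets of Cd247 disagreed, with -0.84 ± 0.18 for 1 of them and 0.02 ± 0.18 and 0.01 ± 0.19 for the other two, and the mean of all its probe sets differed by -0.54.

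Both regulators were higher on the Lo arrays. Bcl11b, the zinc finger factor of T cell commitment, had 5.30 and 5.89 in Hi and 9.50 and 9.37 in Lo. The Lo arrays were nearly equal and far above both Hi arrays, with a difference of -3.84 ± 0.25 (SE), 14.3-fold. All 4 probe sets of Bcl11b had both Hi arrays below both Lo arrays, with differences of -3.84, -3.26, -1.17 and -2.06. The Hi arrays were less alike in 2 of these, each dim on 1 Hi array: 5.00 and 3.71 in the probe set at -3.26, and 3.23 and 5.67 in that at -2.06.

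Themis had 3.35 and 3.81 in Hi, dim on both arrays, and 6.92 and 8.09 in Lo. The groups did not overlap and Lo replicate 2 was 1.18 above Lo replicate 1. Set against the dim limit, Themis was at least 6.22-fold higher in Lo. Its other 3 probe sets gave less: 1 was dim in Hi and at 4.78 and 5.32 in Lo, at least 1.14-fold higher there, and the other two were dim on all 4 arrays.

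Both surface receptors were higher in Lo on each array. Cd7 had 7.10 and 7.27 in Hi and 10.21 and 10.22 in Lo. The arrays of each group were closely alike, and the difference of -3.03 ± 0.14 (SE) was 8.17-fold. Ccr9 had 8.25 and 7.52 in Hi and 10.36 and 10.82 in Lo. The groups did not overlap, and the difference was -2.70 ± 0.33, 6.52-fold. A pair of further Ccr9 probe sets gave -2.54 ± 0.26 and -2.19 ± 0.25, 1 was dim in Hi and at least 1.22-fold higher in Lo, and 1 was dim on all 4 arrays.

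**Figure D2:**
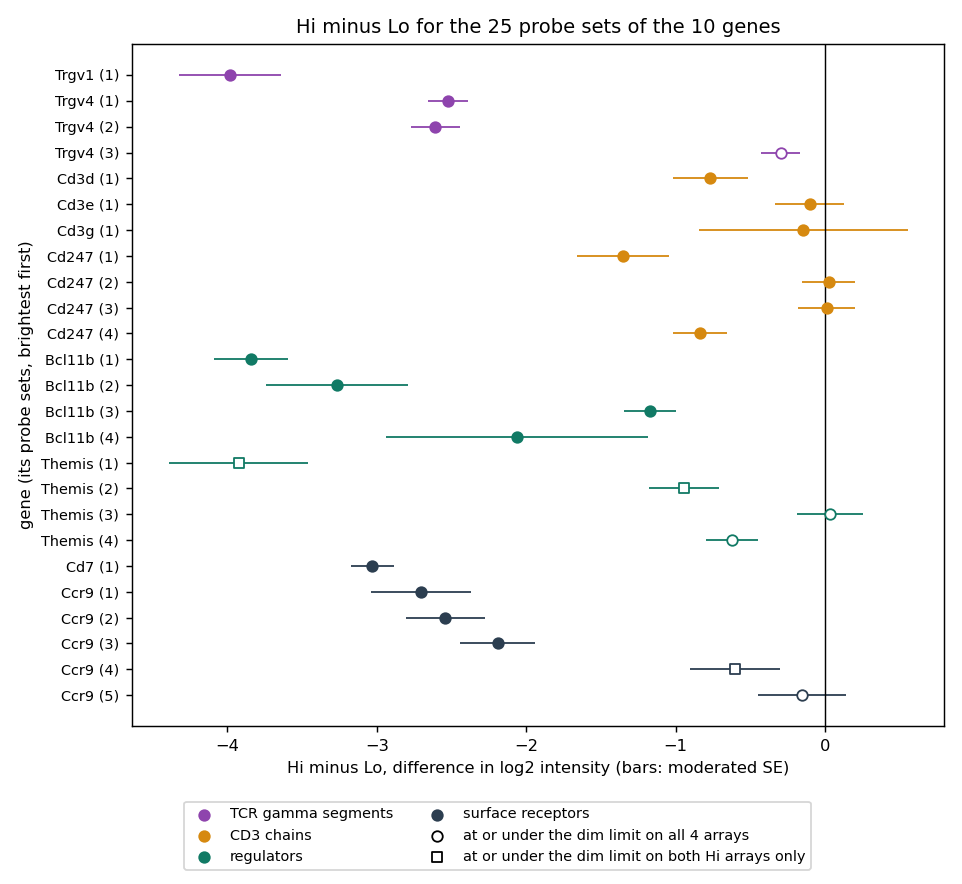
Hi minus Lo in log2 intensity (x axis, bars are the moderated SE, n = 2 arrays per group) for the 25 probe sets (y axis), coloured by the role of the gene; open circles are dim on all 4 arrays and open squares on both Hi arrays, so that their plotted size is not measured. The probe sets of Bcl11b all lie left of 0, while those of the CD3 chains run from -1.35 to 0.02.

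Transcripts named for other T cell receptor segments were described as a group chosen after the values were seen, since the annotation names few of them. Of 8 such genes, 3 were dim on all arrays, among them Tcra, which had 2.42 and 2.66 in Hi and 2.36 and 2.31 in Lo. A probe set annotated to the beta segment Trbv1 had 7.90 and 8.02 in Hi and 10.04 and 10.09 in Lo, a difference of -2.11 ± 0.14 (SE) that did not pass (limma adjusted p = 0.0839, 4.30-fold). Another probe set of Trbv1 was dim on all 4 arrays. The beta segment Trbv13-2 had 7.42 and 7.10 in Hi and 8.12 and 7.61 in Lo (adjusted p = 0.319 by limma).

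Other genes of the T-lineage were taken from 5 lists of 62 measured genes in all, none of them a member. At the 0.05 threshold on the adjusted p, limma called 0 of the 62 higher and 0 lower, as it called 0% of all 45037 probe sets in either direction. At an unadjusted p under 0.05, 12 were lower and 6 higher in Hi, against 11.0% lower and 9.25% higher among all genes. Both Hi arrays lay below both Lo arrays in 23 genes (37.1%, against 25.4% of all genes) and above both in 15 (24.2%, against 30.0%). The median difference over the 62 genes was -0.24, beside 0.03 for all genes.

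Among 23 regulators of T cell specification, 3 were lower and 3 higher at an unadjusted p under 0.05, against 11.0% lower and 9.25% higher among all genes. The median difference was -0.04. Gata3, the zinc finger factor needed at the start of the T-lineage, had 7.50 and 6.96 in Hi and 9.23 and 9.15 in Lo, without overlap. Its difference of -1.96 ± 0.23 (SE), 3.89-fold, did not pass over all probe sets (adjusted p = 0.0947 by limma). A fit on the average of each gene's probe sets called Gata3 lower, where it called 276 of 18193 genes lower and 252 higher. Gata3 has 1 probe set, so its own values were the same in that fit. Tox, a nuclear factor of developing T cells and innate lymphoid cells, differed by -0.97 ± 0.14 by its brightest probe set (limma adjusted p = 0.101). Its other probe sets differed by -1.57 ± 0.47, without overlap, and by -0.16 ± 0.35, with overlap. Notch1 had 11.26 and 11.40 in Hi and 11.96 and 11.89 in Lo (difference -0.60 ± 0.14, limma adjusted p = 0.167), while its second probe set differed by 0.02. Nrarp, a target of Notch that damps its signal, lay the other way at 0.73 ± 0.14 (adjusted p = 0.129).

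Among 24 genes of T cell receptor signalling, 9 were lower and 3 higher in Hi at an unadjusted p under 0.05, against 11.0% lower and 9.25% higher among all genes. Their median difference was -0.44, and 4 of the 24 were dim in Hi. By its brightest probe set, Cd8a had 5.62 and 5.44 in Hi and 6.88 and 6.55 in Lo (difference -1.19 ± 0.19, limma adjusted p = 0.108). The other Cd8a probe sets were dim on all 4 arrays, as was Cd8b1, the partner chain of the CD8 receptor. The kinase gene Txk, counted among the lower genes, was dim on all 4 arrays, so its values bear no order. The co-stimulatory receptor gene Cd28 lay the other way, with 7.17 and 7.13 in Hi and 5.69 and 4.94 in Lo (difference 1.83 ± 0.29, limma adjusted p = 0.111), and its other probe set was dim on all 4 arrays. Cd2, an adhesion receptor of T cells and NK cells, had 6.66 and 6.23 in Hi and 7.32 and 7.26 in Lo, without overlap (difference -0.85 ± 0.20, limma adjusted p = 0.169). The adaptor gene Lat differed by -0.46 ± 0.16 (adjusted p = 0.273). Zap70, the kinase that binds phosphorylated CD3 chains, had 5.53 and 5.72 in Hi and 5.50 and 6.37 in Lo (difference -0.31 ± 0.34), and its 3 probe sets disagreed in sign.

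Of 3 genes of receptor rearrangement and 9 of thymus homing and early lymphoid receptors, 0 passed an unadjusted p of 0.05. Among all genes 11.0% were lower and 9.25% higher at this threshold, and with so few genes nothing is read from the count. Single genes had groups that did not overlap. Rag1, part of the recombinase, had 8.20 and 7.94 in Hi and 7.71 and 7.04 in Lo, both Hi arrays above both Lo arrays, with a difference of 0.69 ± 0.29 (adjusted p = 0.328 by limma). Rag2 had 8.12 and 7.89 in Hi and 9.83 and 6.73 in Lo, so that the Lo arrays lay on both sides of the Hi arrays. Ptcra, the pre-T cell receptor alpha chain, was dim on all 4 arrays. Of 9 genes of homing and early lymphoid receptors, both Hi arrays lay below both Lo arrays in 1, Itga4, against 25.4% of all genes. They lay above both in 2, Cxcr4 and Cd44, against 30.0% of all genes. Il7r, the interleukin-7 receptor, differed by -0.23 ± 0.20. By its brightest probe set, the integrin gene Itga4 differed by -0.40 ± 0.16 (adjusted p = 0.321 by limma). Its probe sets disagreed in sign: 1 at 0.52 ± 0.26 had both Hi arrays above both Lo arrays. Others overlapped, at 0.09 ± 0.21 and -0.34 ± 0.25, and the last was dim on all 4 arrays. The chemokine receptor gene Cxcr4 differed by 0.51 ± 0.29 and the adhesion receptor gene Cd44 by 0.20 ± 0.13.

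**Figure D3:**
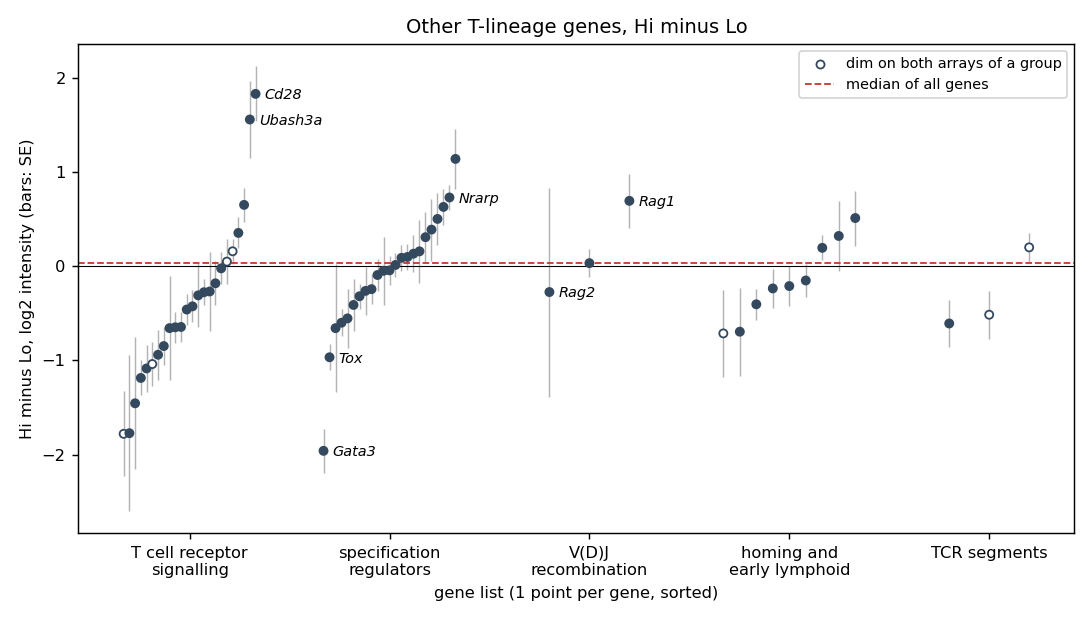
Hi minus Lo in log2 intensity (y axis, bars are the SE) for the 62 other T-lineage genes, 1 point per gene, in 5 lists (x axis), with the median of all genes as a dashed line; open points were dim on both arrays of a group. Gata3 at -1.96 is the lowest point of the regulators, and Cd28 at 1.83 the highest of the signalling genes.

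The labelled cell type was checked against its markers. Kit, which encodes c-Kit, had 11.39 and 11.58 in Hi and 11.95 and 11.55 in Lo, and Cd34 and Flt3 lay between 12.30 and 12.92 on all 4 arrays; Ly6a, which encodes Sca1, was not analysed here. Procr, a stem cell surface gene, had 9.62 and 9.91 in Hi against 11.71 and 11.81 in Lo (limma adjusted p = 0.0839). Of 9 markers of mature T cells, 3 were lower and 1 was higher in Hi at an unadjusted p under 0.05, against 11.0% lower and 9.25% higher among all genes. Their intensities summed to 1860 and 1748 on the Hi arrays and to 2102 and 2226 on the Lo arrays. The sums are dominated by Lat, which had 9.90 and 9.94 in Hi and 10.24 and 10.52 in Lo. The mean log2 intensity of the 9 markers overlapped between the groups, at 6.40 and 6.22 in Hi and 6.46 and 6.28 in Lo. Both Hi arrays lay below both Lo arrays for Cd2, Cd8a and Lat and above both for Cd28, Cd4 and the dim Tcra, Cd5 and Cd6 had overlapping groups, and Cd8b1 was dim on all arrays. Cd3e, a member and so not among the 9, was near the limit in both groups. The Gapdh control, a sign of RNA quality, differed between its 3′ and 5′ ends by 0.63 and 0.66 on the Hi arrays and by 0.74 and 0.78 on the Lo arrays, while the Actb control differed by 0.60 and 0.55 in Hi and by 0.84 and 0.57 in Lo, with overlap; their part in the results was not tested.

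Markers of NK cells and innate lymphoid cells were also examined, since Cd7 and Cd247 are found in NK cells. Their mean log2 intensity over 16 genes stood at 6.66 and 6.67 in Hi, 7.09 in Lo replicate 1 and 7.64 in Lo replicate 2, while their summed intensity, which the very bright Nkg7 dominates, came to 9990 and 9427 on the Hi arrays against 8432 and 7992 on the Lo arrays. Limma called 0 of the 16, as it called 0% of all probe sets. At an unadjusted p under 0.05, 3 were lower and 1 was higher in Hi, against 11.0% lower and 9.25% higher among all genes. Both Hi arrays lay below both Lo arrays in 7 of the 16, against 25.4% of all genes, and above both in 1, against 30.0%. Lo replicate 2 had the highest value of the 4 arrays in 11 of the 16 markers (68.8%), in 6 of the 10 members and in 28.5% of all genes. Ncr1, an NK cell receptor, had 4.62 and 5.12 in Hi and 5.69 and 7.16 in Lo, and the granzyme gene Gzmb 5.29 and 5.20 in Hi and 5.85 and 7.97 in Lo. Il2rb, the interleukin-2 receptor beta chain, had 4.68 and 5.29 in Hi and 5.97 and 7.20 in Lo. Gzma was highest on Lo replicate 1, with 5.98 and 6.95 in Hi and 8.10 and 7.02 in Lo. Nkg7 lay the other way, with 12.94 and 12.83 in Hi and 12.49 and 12.19 in Lo (limma adjusted p = 0.236). By their brightest probe sets, Zbtb16, Icos and Il17rb also had positive differences, of 0.31, 0.15 and 0.04, with overlapping groups. Another probe set of Icos differed by 1.27 ± 0.43, with both Hi arrays above both Lo arrays, and the last by 0.08 ± 0.28, with overlap. None of the 16 markers was dim on all arrays of either group.

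**Figure D4:**
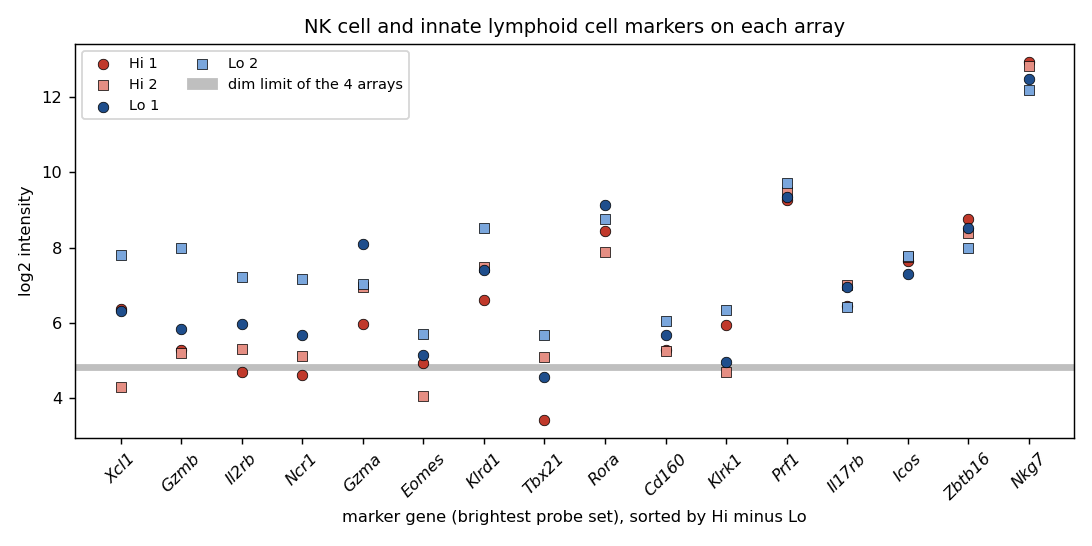
Log2 intensity (y axis) of 16 NK cell and innate lymphoid cell markers (x axis, sorted by Hi minus Lo) on the 4 arrays, with the range of the dim limit as a grey band. Lo replicate 2 is the highest array for 11 of the 16 genes.

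Without Lo replicate 2 the difference was -3.54 for Trgv1, -2.51 for Trgv4, -3.90 for Bcl11b, -3.02 for Cd7 and -2.47 for Ccr9. For the CD3 chains it was -1.05 for Cd247, -1.05 for Cd3d, -0.34 for Cd3e and -0.12 for Cd3g, and Themis, dim in Hi, had 6.92 on the remaining Lo array. Lo replicate 2 lay above Lo replicate 1 in 7 of the 10 members, and in 9834 of all 18193 genes. In the members the excess was 1.18 for Themis, 0.89 for Trgv1, 0.60 for Cd247, 0.46 for Ccr9 and less than 0.1 for Cd3g, Trgv4 and Cd7. Lo replicate 2 lay below in Bcl11b, Cd3e and Cd3d. It was also the higher Lo array in 11 of the 16 NK and innate lymphoid markers. Whether such cells were among the sorted cells was not tested. The Myc transcript had 12.41 on both Hi arrays, 11.70 in Lo replicate 1 and 10.64 in Lo replicate 2. B cell markers (9 measured, median difference 0.01, summed intensity 6625 and 6439 in Hi and 6873 and 9692 in Lo) had Pax5 dim on all arrays. Ighm, the brightest of them on Lo replicate 2, had 12.15 there, 11.02 on Lo replicate 1 and 10.58 and 10.76 in Hi. Both Hi arrays lay below both Lo arrays in 3 of these 9 markers and above both in 2, against 25.4% and 30.0% of all genes. Plasmacytoid dendritic cell markers, of interest since these cells carry Ccr9, had a median difference of 0.18 over 6 genes. Their summed intensities were 9861 and 10423 in Hi and 9731 and 9956 in Lo. At a limma unadjusted p under 0.05, Spib was lower in Hi (-0.62 ± 0.16) and Irf8 higher (0.63 ± 0.22), against 11.0% lower and 9.25% higher among all genes. Both Hi arrays lay below both Lo arrays in 2 of the 6 markers and above both in 2, against 25.4% and 30.0% of all genes. Siglech, among those above, had 6.46 and 6.48 in Hi and 6.40 and 6.17 in Lo.

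The genes whose values over the 4 arrays were most like the mean profile of the members, by Euclidean distance of centred log2 values among 18193 genes, were Bgn, Trpc6, Gimap3, Triqk and Gbp8, at distances of 0.09 to 0.19. Bgn encodes the matrix proteoglycan biglycan and had 8.94 and 8.66 in Hi and 10.90 and 11.08 in Lo. Gimap3, a GTPase gene of lymphocytes, had 7.59 and 7.21 in Hi and 9.59 and 9.87 in Lo. With 4 arrays many genes share such a profile, and the likeness is a description only.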

How the data were processed

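Intensities of 45101 probe sets on 4 arrays were analysed. The authors deposited linear intensities; the submitters' processing notes name RMA, without a version. Log2 values were taken with no offset. RMA is meant to make the distributions of arrays alike, which hides a change in the amount of RNA per cell. The median log2 values still differed slightly, at 5.70 and 5.72 on the Hi arrays and 5.78 and 5.82 on the Lo arrays. After 64 control probe sets were left out, 45037 were tested. The platform annotation gave 1 symbol to 34945 of these, several to 932 and none to 9160, and Entrez identifiers matched 34741 to the RefSeq table of GRCm38.p6. A gene stands for its probe set with the highest mean.

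Hi minus Lo was fitted in R 4.3.3 with the lmFit and eBayes functions of limma 3.58.1 (no block, two-sided, 2 residual degrees of freedom), adjusted by the Benjamini-Hochberg method over 45037 probe sets and called under 0.05. The steps were tested on simulated data. Folds are log2 differences written as ratios. Where a gene was dim in a group, the fold is a lower bound: the bright group's mean against the dim limit.

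The members, the gene lists and the dim limit were chosen with earlier results of these data known. Named were all members, up to 3 genes per list with the smallest unadjusted p and groups that do not overlap, a fixed set of T-lineage genes as far as they were analysed here, Kit, and the 5 genes most alike in profile; other genes were chosen after their values were seen. With 2 arrays per group, precision is limited by their number.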

Additional observations from a re-analysis of the deposited data

How the results depend on the processing

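With each gene's probe sets averaged, a fit over fewer features, limma called 252 genes higher and 276 lower. The fit over all probe sets called 0 and 0 (8090 at an unadjusted p under 0.05). Of the other T-lineage genes the averaged fit called 1 lower, Gata3, whose 1 probe set is unchanged by averaging. The ordinary test called 1 probe set lower; its cause was not tested. In the other 10 alternatives 0 probe sets were called. Both Hi arrays lay below both Lo arrays for 17 member probe sets with dim ones removed, against 28.2% of all remaining probe sets. With the arrays shifted to 1 median they did so for 19 member probe sets, against 16.5% of all probe sets. With 1 array left out the criterion is easier to meet: 8 to 10 member genes and 19 to 22 member probe sets met it, against 33.5% to 39% of all genes and 31.3% to 36% of all probe sets. Without Lo replicate 2, 35 of the other 62 T-lineage genes met it (56.5%, against 36.9% of all genes), where 23 did with all arrays (37.1%, against 25.4%). In the 7 or 8 alternatives that changed its value, the difference of each of Trgv1, Trgv4, Bcl11b, Themis, Cd7, Ccr9, Cd3d and Cd247 stayed below 0; the other alternatives changed only the test or the genes tested. The mean of a gene's probe sets, dim ones included, gave -1.81 for Trgv4, -2.58 for Bcl11b, -1.64 for Ccr9 and -0.54 for Cd247. Replicate numbers are shared between the groups, but nothing says that they pair samples: the deviations of same-numbered arrays correlated at r = 0.07 over probe sets. With the replicate block 0 probe sets and 0 of the 62 genes were called; the counts of members without overlap, 8 and 19, do not depend on the model and could not change. The arrays give no counts; probe sets at or under the dim limit bear no order.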
